A study of Mus musculus with 8 samples.

Results

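Loss of the transcription factors STAT5A and STAT5B was compared between T-cell progenitors before and after commitment to the T lineage. The quantity described is a difference of differences for each gene. It is the effect of Stat5 guides after commitment minus the effect of the same guides before commitment, on log2 CPM (read counts scaled to a common library size), taken within each replicate number. All 8 of the 8 bulk RNA-seq libraries of the series enter it, and all 13775 genes that passed a filter on low counts, of 24506 in the table, were fitted.

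The libraries form 4 groups of 2. Every group was grown from mouse bone marrow of the genotype B6.CRISPR-Cas9;Bcl2;Bcl11b-mCherry/mCherry, so Cas9, a Bcl2 transgene and a fluorescent reporter of Bcl11b are shared by control and treated cells. The drivers of the transgenes and the age of the mice are not given in the sources used here. Cells received control guides, or 3 guides against Stat5a together with 3 against Stat5b, by retrovirus. They then grew for 6 days on OP9-DLL1 stroma, which presents the Notch ligand DLL1, with 10 ng/ml each of Flt3l and IL-7. Infected, lineage-negative, CD25+ cells were sorted without reporter signal (the early gate, before commitment) or with it (the late gate, after commitment). The sample titles name the gates Bcl11b_neg and Bcl11b_pos, while the series text once calls both of them reporter negative. The titles were followed. The groups are early control, early sgStat5, late control and late sgStat5, and total counts ran from 22146490 to 31209177 per library. Pairs of values are given as replicate 1 and then replicate 2. The labels do not say whether replicates were separate cultures or animals, so every p-value measures only the spread between these libraries. Xist was at most 0.36 CPM in every replicate-1 library and 1388 to 2345 CPM in replicate 2, and the Y-linked Ddx3y was at 101 to 125 and at 29.3 to 46 CPM. The replicate numbers thus held different mixes of male and female cells, and the replicate block takes up a shift common to all groups. Inside replicate 2 the groups differed as well. Ddx3y was at 34 CPM in early control, 46 in early sgStat5, 29.3 in late control and 39.7 in late sgStat5. Xist was at 1394, 1388, 1993 and 2345 CPM in that order. The block does not take up such differences, and their part in the difference between gates was not tested.

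STAT5 proteins are latent factors in the cytoplasm. When IL-7 engages its receptor, which pairs the IL-7 receptor alpha chain with the common gamma chain, JAK1 and JAK3 phosphorylate STAT5, which enters the nucleus and binds DNA as a dimer. In early T cells this pathway supports survival through Bcl2 and induces feedback inhibitors such as Cish and the Socs genes. Commitment is the step at which the progenitor switches on Bcl11b and loses access to other blood lineages. Recombination of T-cell receptor genes and expression of the pre-TCR follow.

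No gene passed the test of the difference between gates. With edgeR's quasi-likelihood test and no replicate term, 0 of 13775 genes (0% of those tested) had an adjusted p under 0.05, and the smallest adjusted p was 0.9998. At an unadjusted p under 0.05 there were 302 genes, or 2.19% of those tested, of which 180 had a higher late than early effect and 122 a lower one. With the replicate number as a block, edgeR again called 0 genes (0%), the smallest adjusted p was 0.112, and 814 genes had an unadjusted p under 0.05. Of these, 427 were higher (3.1% of all tested) and 387 lower (2.81%). Limma-voom without the block called 0 genes, while DESeq2 called 2 genes without the block, Etv5 and Dscam, and 71 with it (0.515% of all genes). The 71 comprised 46 genes with a higher and 25 with a lower late effect. Among the 71 were 7 uncharacterised gene models with identical counts, with a highest group mean of 0.46 CPM, and a fitted log2 size of 25.6 for such counts cannot be read as a fold change. Values of the difference are therefore given as measured, with no gene called different between the gates by edgeR.

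The spread around the difference was wide compared with its size. The median absolute difference with the block was 0.187 on the log2 scale over all genes tested, and the median standard error (SE) was 0.288 without the block and 0.221 with it. Across the 10556 genes with a highest group mean of at least 5 CPM, the difference in replicate 1 and in replicate 2 correlated with Pearson's r of 0.316 and Spearman's rho of 0.283. Across the 5161 genes of at least 50 CPM, r was 0.392 and rho 0.403. The replicate numbers share no library, but genes are not independent points, and replicates of 1 number share whatever separates the numbers. The sign was the same in both replicates for 66.1% of genes of at least 50 CPM and for 59.3% of all genes tested.

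**Figure D1:**
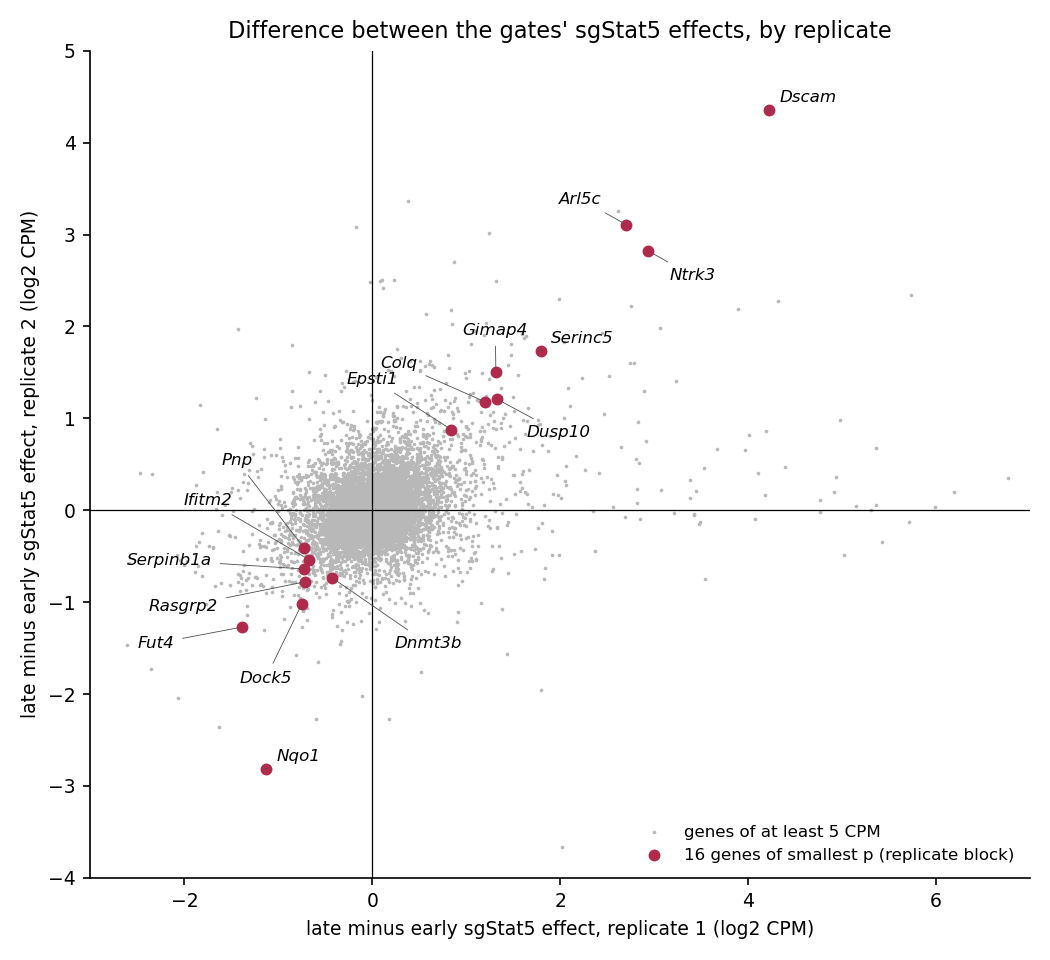
Late minus early sgStat5 effect in replicate 1 (x axis) and replicate 2 (y axis), both in log2 CPM, for genes with a highest group mean of at least 5 CPM. Each grey point is 1 gene (10555 drawn, 1 outside the axes), and the 16 red points are the genes with the smallest unadjusted p in the blocked fit. The red points lie near the diagonal because that p chose them, and a tail of grey points stretches along the x axis near 0 on the y axis.

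The tail along the axis of replicate 1 held 35 genes of at least 5 CPM whose difference was at least 3 in replicate 1 and within 1 of 0 in replicate 2. Genes of the stromal list made up 10 of the 35, and 24 of the 35 were at or under 0.1 CPM in early sgStat5 replicate 1. Col1a1, the alpha-1 chain of type I collagen, was at 7.99 and 50.3 CPM for early control against 0 and 36.2 for early sgStat5, then 28.9 and 83 for late control against 29.2 and 76.3 for late sgStat5. Its difference was 6.76 in replicate 1 and 0.35 in replicate 2. The summed stromal list was lowest in early sgStat5 replicate 1, at 477 CPM, and ran from 837 to 2092 CPM in the other libraries. Thy1, which T-lineage cells also express, made up much of that sum. Without it the list was at 186 CPM in early sgStat5 replicate 1, from 254 to 451 in the other replicate-1 libraries and from 623 to 1189 in replicate 2. With that gap in a single library, differences seen only in replicate 1 were not described further.

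Among genes past an adjusted p of 0.05 in a gate, the effect of the Stat5 guides nearly always had the same direction in both gates. Without the block the early gate had 37 genes past an adjusted p of 0.05 (0.269% of those tested) and the late gate 235 (1.71%). The sets shared 36 genes, all of the same sign. With the block there were 321 genes in the early gate (2.33%) and 1132 in the late gate (8.22%), with 288 in both and 0 of opposite sign. Of the 1132 late genes, 1082 had the same sign in the early gate and 50 the opposite sign. The early and late effects share no libraries, but libraries of 1 replicate number were linked. Their deviations from group means correlated at 0.421 to 0.578 between groups, and the part of this link in the shared signs was not tested. Over all genes tested, the early and late effects correlated at r of 0.252 in replicate 1 and 0.39 in replicate 2. A longer list in 1 gate does not show that the gates differ, and edgeR's test of the difference itself called none in either fit.

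The sizes of the effects were compared on genes chosen in the other replicate. Genes of at least 5 CPM were chosen where the mean of the early and late effects was at least 1 on the log2 scale in 1 replicate, and their effects were then read in the other. The 200 genes chosen as higher in replicate 1 had a median effect of 0.84 in the early gate and 1.56 in the late gate of replicate 2, and 157 of them (78.5%) were larger late. The 245 genes chosen as lower had medians of -0.89 and -1.19, with 167 (68.2%) larger in size late. In the opposite direction, 209 genes chosen as higher in replicate 2 had medians of 0.94 and 1.26 in replicate 1, with 142 (67.9%) larger late. The 146 chosen as lower had medians of -1.55 and -1.89, with 94 (64.4%) larger late. In both replicates and both directions the median effect was therefore larger in size in the late gate. The values describe these libraries, and no test was attached to them.

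**Figure D2:**
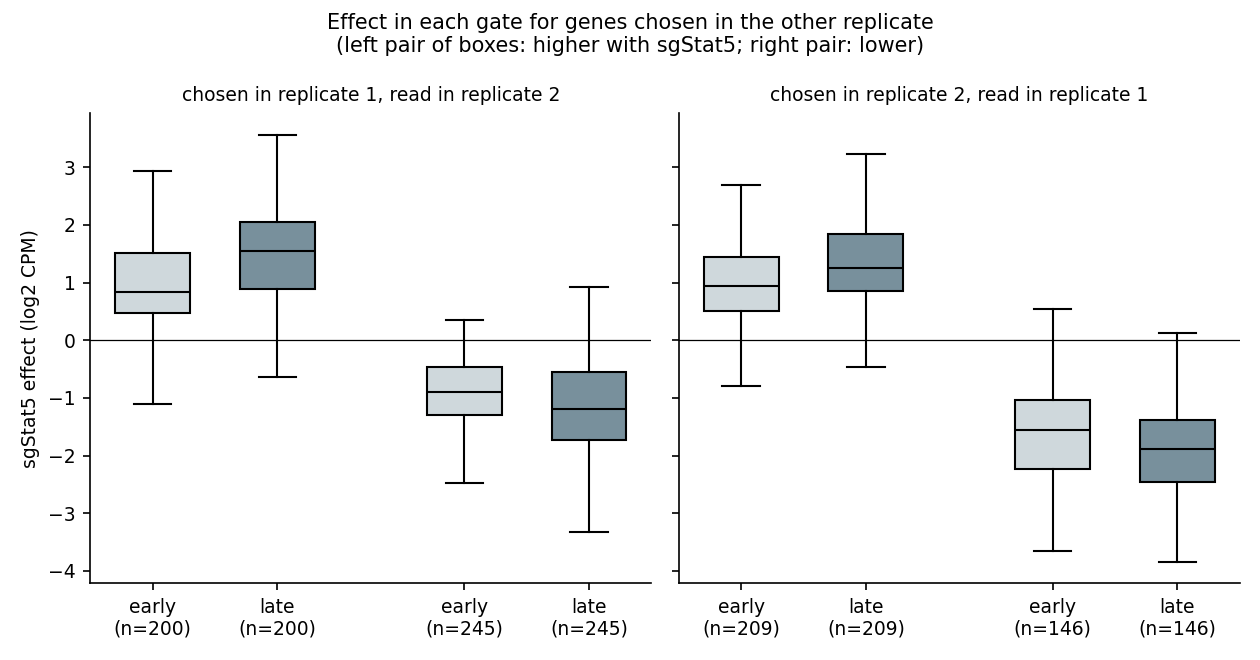
Effect of the Stat5 guides in log2 CPM (y axis) in the early and late gate for genes chosen in 1 replicate and read in the other. Boxes show the quartiles and the median and whiskers reach to the last gene within 1.5 box lengths, with genes beyond them not drawn. In each of the 4 pairs the late box lies farther from 0 than the early box, with medians of 1.56 against 0.84 for genes chosen as higher in replicate 1.

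Both targeted genes fell in each gate. Stat5a was at 258 and 257 CPM for early control against 106 and 105 for early sgStat5, then 257 and 238 for late control against 116 and 108 for late sgStat5. Every sgStat5 library was below every control library, with adjusted p of 0.0112 in the early and 0.00451 in the late gate by edgeR without the block. The blocked difference between gates was 0.14 ± 0.10 (SE), with a 95% interval from -0.10 to 0.37. Stat5b fell from 255 and 249 to 144 and 133 CPM in the early gate and from 280 and 255 to 154 and 135 in the late gate. Its blocked difference was -0.02 ± 0.10 (SE), with an interval from -0.25 to 0.21. RNA of both genes was still counted in every sgStat5 library, and RNA levels do not measure the protein.

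The genes that define the gates moved with the comparison. Bcl11b, the commitment factor whose reporter separates the gates, was at 132 and 45.6 CPM for early control against 132 and 70.1 for early sgStat5, then 542 and 219 for late control against 797 and 415 for late sgStat5. The late gate was above the early gate in each replicate and arm. Within the late gate, sgStat5 was above control in each replicate. The blocked difference was 0.44 ± 0.19 (SE), and it was 0.55 in replicate 1 and 0.30 in replicate 2. Il2ra, the CD25 chain of the IL-2 receptor that both gates selected for, was at 3152 and 2887 CPM for early control against 1980 and 2155 for early sgStat5, then 2948 and 3075 for late control against 1374 and 1886 for late sgStat5. Its blocked difference was -0.34 ± 0.15 (SE), and ran from -0.58 without late sgStat5 replicate 2 to -0.14 without late sgStat5 replicate 1. For Bcl11b it ran from 0.18 to 0.66 with 1 library left out. The share of the other differences that moves with the level of Bcl11b inside the late gate was not tested.

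The 16 genes with the smallest p in the blocked fit, 8 in each direction, were chosen by that p and are described by values only. A gene also needed the same sign in both replicates and a highest group mean of at least 5 CPM. Their adjusted p ran from 0.112 to 0.399, so none passed in edgeR, while DESeq2 with the block called all 16. In the late gate alone, 9 of the 16 passed without the block and 16 with it, while in the early gate 0 and 1 did. The fitted late effect was larger in size than the early one in all 16, and in both replicates in 15, the exception being Serpinb1a. The fitted effects had opposite signs in 5, namely Ntrk3, Colq, Arl5c, Serinc5 and Serpinb1a, of which Arl5c and Serpinb1a had an early effect of at least 0.3 in size. Both late sgStat5 libraries lay above the other 6 libraries in 7 of the 8 genes with a higher late effect, against 9.18% of all genes tested. They lay below the other 6 in 7 of the 8 with a lower late effect, against 10.7% of all genes. The rule used the same contrast, so nothing is read from these counts.

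Ntrk3 and Dscam, 2 genes best known from neurons, had the smallest p. Ntrk3, the neurotrophin-3 receptor (chr7:78300691-78577838, minus strand, mm10 as for all positions of genes here), was at 3.82 and 2.22 CPM for early control against 3.01 and 2.44 for early sgStat5. Late control libraries held 9.69 and 4.03 CPM, and late sgStat5 libraries 59.3 and 31.7. Both late sgStat5 libraries stood above the other 6, and the early arms overlapped. The difference was 2.94 and 2.82 in the replicates and 2.87 ± 0.33 (SE) with the block. Dscam, a cell adhesion molecule of the immunoglobulin superfamily (chr16:96592079-97170735, minus strand), was at 1.89 and 2.83 CPM for early control against 3.86 and 3.1 for early sgStat5, then 0.23 and 0.42 for late control against 11.4 and 11 for late sgStat5. Controls were lower late than early, and sgStat5 libraries were higher late than early, in both replicates. The blocked difference was 4.50 ± 0.54 (SE).

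Dusp10, a phosphatase that inactivates p38 and JNK kinases (chr1:184034381-184075636, plus strand), was at 9.84 and 7.97 CPM for early control against 13.7 and 12.1 for early sgStat5, then 11.1 and 9.78 for late control against 39.2 and 34.3 for late sgStat5. The control levels hardly moved between gates, and the difference was 1.33 and 1.21. Gimap4, a GTPase of lymphocytes (chr6:48684578-48692062, plus strand), was at 6.53 and 8.26, 8.18 and 9.83, 10.9 and 13.2, and 34 and 44.4 CPM in the same order of groups. Its difference was 1.32 and 1.5. Serinc5, a membrane protein that restricts retroviral particles (chr13:92611138-92711946, plus strand), was at 5.43 and 3.76, 5.53 and 3.55, 13.1 and 7.07, and 46.2 and 22.3 CPM. Its early arms overlapped, and its difference was 1.79 and 1.73.

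Colq encodes the collagen tail of acetylcholinesterase (chr14:31523084-31577383, minus strand). It was between 24.7 and 35.5 CPM in the 6 other libraries and at 69.6 and 61.8 in late sgStat5, a difference of 1.2 and 1.18. Epsti1, an interferon-inducible gene (chr14:77904239-78002656, plus strand), was at 58.4 and 42.2 CPM for early control against 67.9 and 52.2 for early sgStat5, then 99.2 and 59.8 for late control against 207 and 136 for late sgStat5, with differences of 0.84 and 0.88. Arl5c, an ARF-like GTPase (chr11:97989580-97996173, minus strand), was at 2.05 and 0.42 CPM for early control against 0.94 and 0.26 for early sgStat5, then 24.1 and 2.77 for late control against 75.5 and 16.6 for late sgStat5. Its replicates differ widely, and late sgStat5 replicate 2 lay below late control replicate 1. The effect was nevertheless higher late in both replicates, by 2.70 and 3.11.

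**Figure D3:**
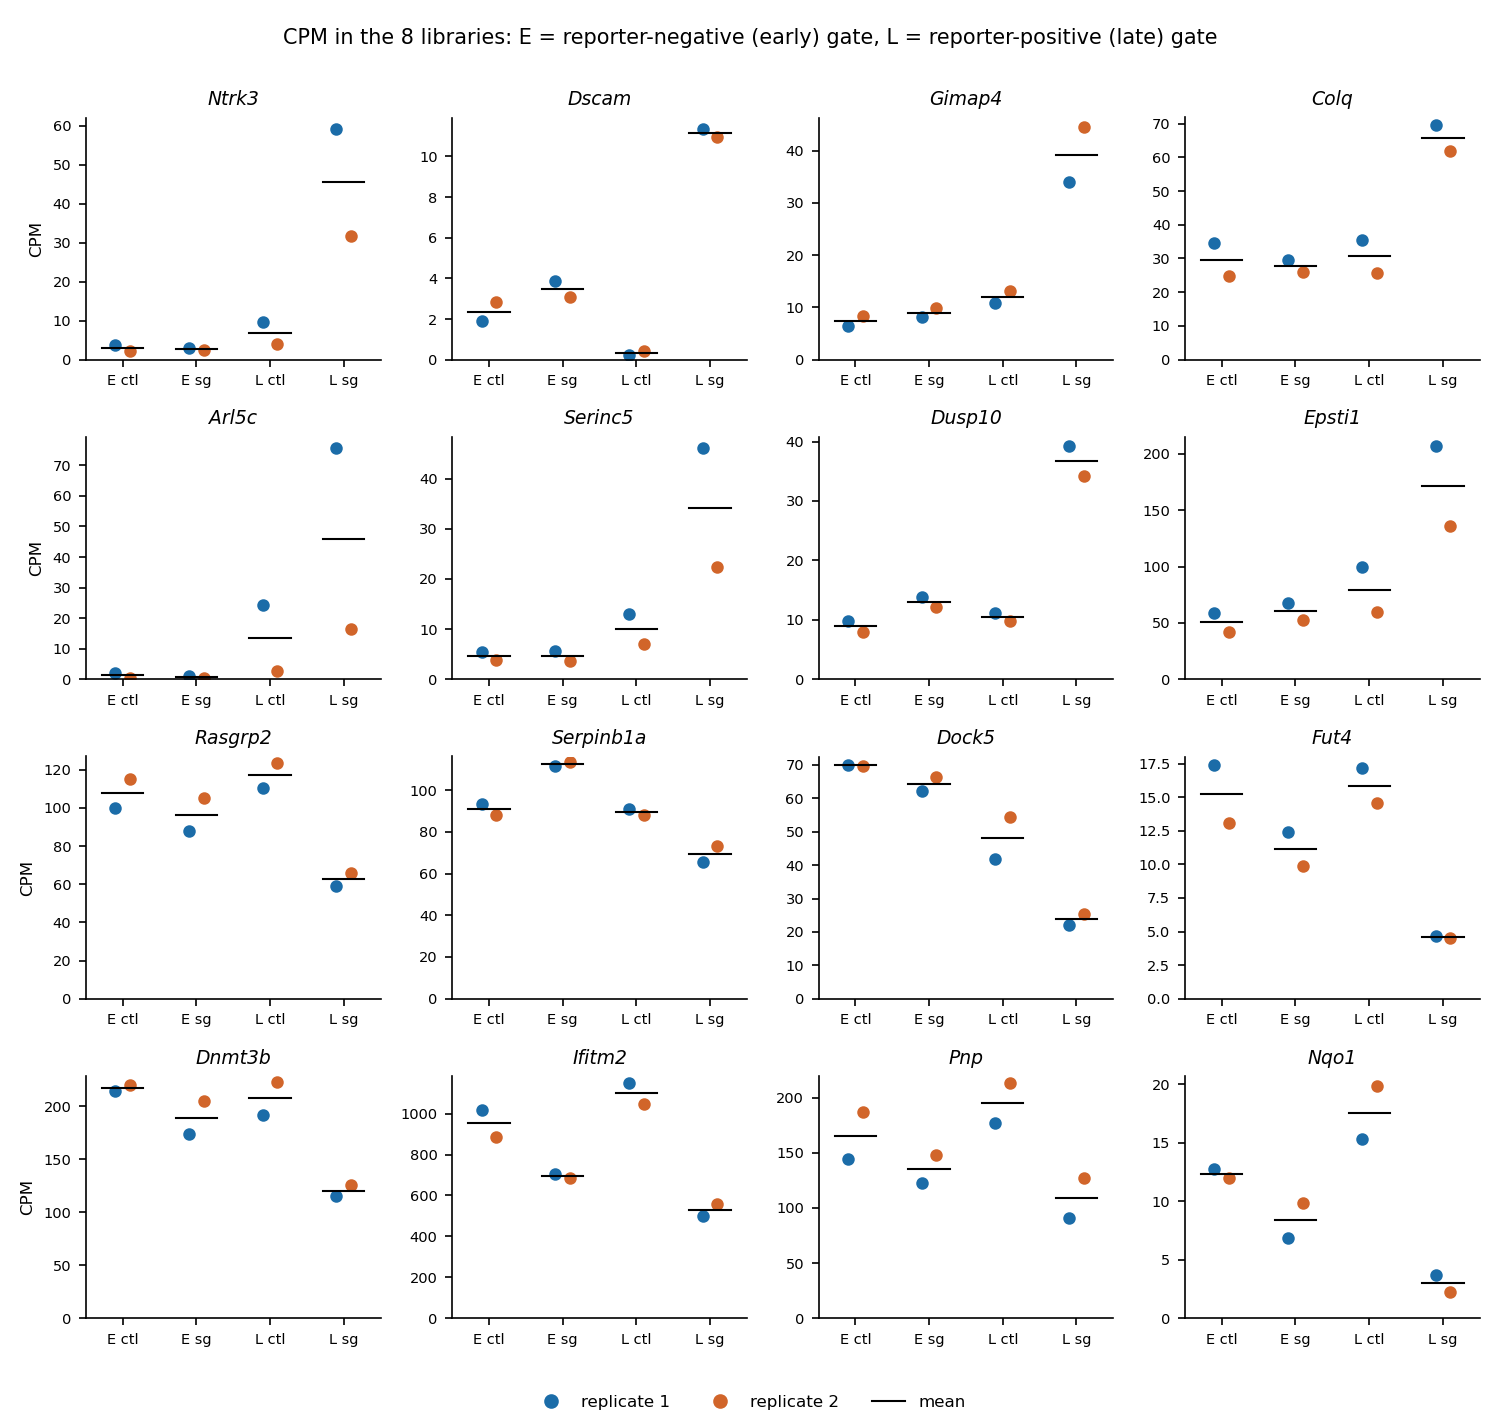
CPM (linear axis from 0) in each of the 8 libraries for the 16 genes with the smallest unadjusted p of the blocked fit. Groups are on the x axis (E early, L late, ctl control, sg sgStat5), colours mark replicate numbers and black lines are means; for Ntrk3 the late sgStat5 libraries sit at 59.3 and 31.7 CPM and all others at or below 9.69.

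Among the 8 genes with a lower late effect, Nqo1 had the largest difference in size. Nqo1, a quinone reductase of the antioxidant response (chr8:107388225-107403205, minus strand), was at 12.7 and 12 CPM for early control against 6.83 and 9.86 for early sgStat5, then 15.3 and 19.8 for late control against 3.71 and 2.26 for late sgStat5. Late sgStat5 was lowest in both replicates, and the difference was -1.13 and -2.82. Fut4, a fucosyltransferase (chr9:14748459-14752122, minus strand), was at 17.4 and 13.1, 12.4 and 9.9, 17.2 and 14.6, and 4.64 and 4.52 CPM in the same order. Its difference was -1.39 and -1.27. Rasgrp2, an exchange factor for the GTPase RAP1 (chr19:6400583-6415216, plus strand), lay between 87.9 and 124 CPM in the other 6 libraries and at 59.1 and 65.9 in late sgStat5. The blocked difference was -0.75 ± 0.11 (SE). Dock5, an exchange factor for RAC (chr14:67751928-67933572, minus strand), was at 70.1 and 69.7, 62.2 and 66.3, 41.7 and 54.4, and 22 and 25.5 CPM, with a blocked difference of -0.89 ± 0.16 (SE).

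Dnmt3b, a de novo DNA methyltransferase (chr2:153649449-153687730, plus strand), was at 214 and 219 CPM for early control against 173 and 205 for early sgStat5, then 192 and 223 for late control against 115 and 125 for late sgStat5. Its difference was -0.43 and -0.73. Ifitm2, an interferon-induced membrane protein (chr7:140954839-140955961, minus strand), was the 1 gene of the 16 that passed in both gates with the block, with adjusted p of 0.027 early and 0.00019 late. It was at 1020 and 886 CPM for early control against 707 and 684 for early sgStat5, then 1152 and 1047 for late control against 501 and 558 for late sgStat5. Pnp, purine nucleoside phosphorylase (chr14:50944303-50953412, plus strand), was at 145 and 187, 123 and 148, 177 and 214, and 91.1 and 127 CPM, and its late sgStat5 libraries overlapped the early ones. Serpinb1a, an inhibitor of neutrophil proteases (chr13:32842092-32851185, minus strand), was at 93.5 and 88, 112 and 114, 91.1 and 88.2, and 65.8 and 73.1 CPM. Its fitted effect was 0.31 in the early and -0.37 in the late gate, of which the late one passed with the block, with an adjusted p of 0.035.

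A fold rule gave a wider view of the size of the differences. A difference of at least 1 in both replicates was seen in 299 genes with a higher late effect (2.17% of those tested) and 159 with a lower one (1.15%). A difference above 0 in both replicates was seen in 27.2% of all genes and below 0 in 32.1%, and the median over all genes was -0.02. Gene lists are described against these shares. No member of any list passed the test of the difference in either edgeR fit. DESeq2 with the block called 19 listed genes, 16 of them higher late, which fell in 11 lists. Over all genes it called 0.515%, and 46 of its 71 calls were higher late. It called 5 of 20 class I, 3 of 15 class II and 3 of 26 NF-kappaB genes. For T-lineage factors it called 0 of 20, and for sterol genes 0 of 26. The 19 were Cd74, H2-Aa and H2-Eb1 of class II, H2-Q4, H2-Q6, H2-Q7, Tap1 and Tapbp of class I, Relb, Nfkb2, Ltb, Irf1, Rag1, Thy1, Etv5, Rasgrp2, Gzma, Pim1 and Itga6. List medians of classes I and II, T-lineage factors, cytokine receptors, NF-kappaB, DNA replication, sterol and glycolysis genes kept their sign under all 29 alternatives. The medians of the interferon, GTPase, STAT5-associated, ribosome, recombination, adhesion, quiescence and progenitor lists changed sign under at least 1.

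Antigen presentation genes had the most uniform direction. MHC class I molecules and their loading machinery show peptides to CD8 T cells. Of the 20 tested members, 19 had a difference above 0 in both replicates and none below 0 in both. The shares of all genes were 27.2% and 32.1%. The median difference was 0.38, from a median effect of 0.52 early and 0.93 late. With the block, 13 of the 20 had an unadjusted p under 0.05, all higher, against 3.1% of all genes. Without it 10 did, against 1.31%. For the effects themselves, 11 of the 20 rose in the early gate with the block (1% of all genes did) and 18 in the late gate (3.72% of all genes). Without the block the counts were 1 in the early gate (0.123% of all genes) and 14 in the late gate (0.755%). H2-Q4, a non-classical class I heavy chain, was at 126 and 141 CPM for early control against 226 and 236 for early sgStat5, then 176 and 170 for late control against 522 and 413 for late sgStat5. The 4 groups did not overlap, and the difference was 0.72 and 0.53. H2-Q6 and H2-Q7 had differences of 0.85 and 0.47 and of 0.92 and 0.55, but they are near-identical copies and the split of reads between them is uncertain. Tapbpl, a peptide editor of class I, had differences of 0.63 and 0.55. B2m, the light chain of class I, was named after its values were seen. It was at 773 and 861 CPM for early control against 1178 and 1273 for early sgStat5, then 893 and 925 for late control against 1587 and 1636 for late sgStat5. Its difference was 0.22 and 0.26.

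MHC class II molecules present peptides to CD4 T cells and are mainly found on dendritic cells, macrophages and B cells. Of the 15 tested class II genes, 13 had a difference above 0 in both replicates and none below 0 in both. The shares of all genes were 27.2% and 32.1%, and the median of the list was 0.66. A difference of at least 1 in both was seen in 5, against 2.17% of all genes. With the block 7 of the 15 had an unadjusted p under 0.05, all higher, against 3.1% of all genes. In the early gate 0 of the 15 passed the test in either fit, with a median effect of 0.72. In the late gate 9 rose with the block and 1 without it, against 3.72% and 0.755% of all genes. The levels were low. H2-Eb1, a class II beta chain, was at 3.11 and 4.31 CPM for early control against 4.4 and 17 for early sgStat5, then 0.11 and 1.26 for late control against 14.1 and 26.2 for late sgStat5. Early sgStat5 replicate 2 lay inside the late sgStat5 range, and the difference was 5.73 in replicate 1 and 2.34 in replicate 2. H2-Aa, the alpha chain, was at 1.22 and 6.33, 3.33 and 15.6, 0.23 and 1.97, and 15.9 and 24.1 CPM. Cd74, the invariant chain that chaperones class II, was at 3.66 and 12.5, 11.4 and 30.5, 2.22 and 8, and 59 and 77.3 CPM. Ciita, the master activator of class II genes, was at 0.91 and 1.8, 2.25 and 7.57, 0.38 and 0.87, and 8 and 9.39 CPM, a difference of 2.90 and 1.29. For all 4 the control level was lower in the late gate than in the early gate, and the sgStat5 level was higher in the late gate, in both replicates.

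Markers of cells that carry class II were read beside these values. The summed myeloid and dendritic list was at 270 and 312 CPM for early control against 311 and 298 for early sgStat5, then 80.1 and 142 for late control against 107 and 160 for late sgStat5. It was thus lower in the late gate, where class II was highest with the guides, than in the early gate. Within the late gate it was higher with the guides in both replicates. Members did not move together. Fcer1g, also on the NK and innate lymphoid list, was at 87.4 and 113 CPM in early control. In the late gate it was at 17.8 and 49.9 CPM for control and 13.3 and 30.3 for sgStat5. The sum thus does not measure cells with class II alone. The summed B-cell list was at 139 and 104, 145 and 112, 231 and 124, and 250 and 176 CPM, while Ms4a1 was at 0 in all 8 libraries. Mpeg1, a macrophage and dendritic pore protein, was at 0.35 and 1.61, 4.22 and 6.5, 0.65 and 1, and 12.9 and 19 CPM. In bulk RNA, more cells of a type and more RNA per cell cannot be told apart, and the part of either in the class II values was not tested.

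**Figure D4:**
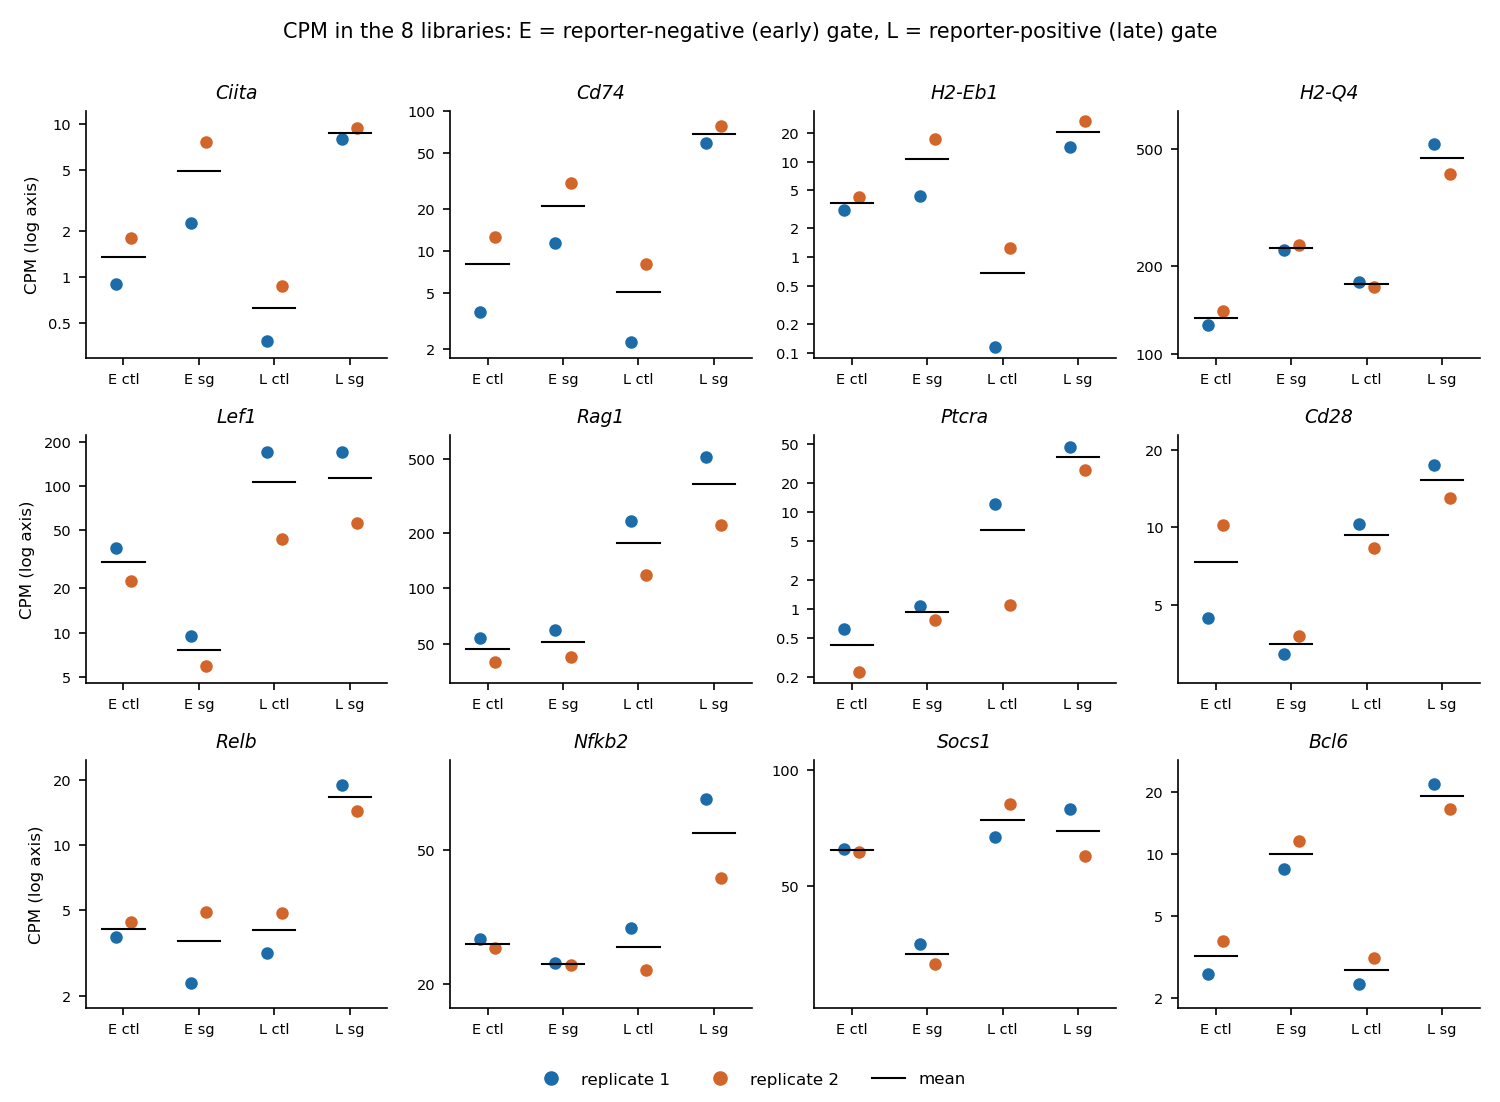
CPM (log axis) in each of the 8 libraries for named members of the gene lists. Groups are on the x axis (E early, L late, ctl control, sg sgStat5), colours mark replicate numbers and black lines are means; the late sgStat5 libraries of Cd74 are at 59 and 77.3 CPM, above the 6 others.

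Interferons induce genes of antiviral defence. Of 30 genes on the interferon-response list, which does not hold Ifitm2, 15 rose in the early gate with the block (1% of all genes) and 24 in the late gate (3.72%), and 0 fell. Without the block 2 rose early and 7 late, against 0.123% and 0.755% of all genes. Their difference was above 0 in both replicates in 15 of 30 and below 0 in both in 1. Among interferon-inducible GTPases, which act against intracellular pathogens, it was above 0 in both in 15 of 18 and below 0 in both in 1. That 1 was Iigp1, with differences of -0.65 and -0.77. Over all genes 27.2% were above and 32.1% below 0 in both. The medians of the lists were 0.21 and 0.22. Irf1, a transcription factor of this response, was also named after its values were seen. It was at 101 and 109 CPM for early control against 164 and 175 for early sgStat5, then 127 and 123 for late control against 284 and 295 for late sgStat5. The 4 groups did not overlap, and the difference was 0.47 and 0.58. Irf8, a factor of myeloid and lymphoid differentiation, was at 8.93 and 10.1, 9.84 and 14.6, 8.85 and 7.32, and 21.3 and 24.3 CPM, a difference of 1.12 and 1.2. Ifit3 went the other way, with differences of -0.96 and -0.94 from levels of 1.06 and 0.29 CPM for early control against 3.55 and 1.7 for early sgStat5, then 6.62 and 2.42 for late control against 10.9 and 6.27 for late sgStat5.

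Genes of the cytokine response that STAT5 is known for were mostly lower with the guides in both gates. Of 24 genes of the STAT5-associated list, 10 fell in the early and 14 in the late gate with the block, against 1.33% and 4.49% of all genes, while 2 rose in each. Without the block 2 fell early and 6 late, against 0.145% and 0.951%. The list was chosen for its known response, and its direction is no independent evidence. Between gates, 4 (16.7%) had a difference above 0 in both replicates and 9 (37.5%) below 0 in both, against 27.2% and 32.1% of all genes. Socs2, a feedback inhibitor of cytokine signalling, was at 61.2 and 70.4 CPM for early control against 11.1 and 27.3 for early sgStat5, then 109 and 137 for late control against 15.9 and 21.5 for late sgStat5. The control level was higher late, the sgStat5 ranges overlapped, and the difference was -0.32 and -1.30. Cish, another inhibitor of this family, was at 21.4 and 35.2, 1.98 and 10.5, 28.8 and 40.8, and 2.74 and 6.74 CPM, with differences of 0.03 and -0.84. Bcl2, the survival gene of this pathway, was at 240 and 274, 78.4 and 144, 387 and 414, and 93.6 and 143 CPM, with differences of -0.43 and -0.61. Reads of the shared Bcl2 transgene could be counted here too, which was not tested.

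A pair of listed genes stood apart from that order. Socs1, an inhibitor of JAK kinases, was at 62.5 and 61.1 CPM for early control against 35.4 and 31.4 for early sgStat5, then 67.1 and 81.2 for late control against 79.1 and 59.8 for late sgStat5. It fell in the early gate with the block, by 0.89 on the log2 scale with an adjusted p of 0.0168, while the late arms overlapped. The blocked difference was 0.79 ± 0.21 (SE), with an adjusted p of 0.53. Bcl6, a transcriptional repressor of lymphocytes, was at 2.64 and 3.79 CPM for early control against 8.49 and 11.6 for early sgStat5, then 2.34 and 3.13 for late control against 21.7 and 16.5 for late sgStat5. It rose in both gates with the block, and the difference was 1.52 and 0.78. Csf2rb, the shared beta chain of the IL-3, IL-5 and GM-CSF receptors, had differences of -0.88 and -1.06.

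Promoters of 5 genes described here are shown because each gene rose in the late gate with the block and holds letters of the STAT type, TTCNNNGAA, in the 250 bases before an annotated start. The sequences are from RefSeq on GRCm38.p6, read 5′ to 3′ on the gene's strand, and capitals mark those letters. For this choice 41 genes that rose in the late gate with the block were considered, and 31 of them had a listed promoter. Among the 31, 6 held such letters there, and the others of the 41 could not be searched. Igtp, an interferon-inducible GTPase, is the 1 of the 6 that is not shown. The windows are chr16:23981284-23981533 (minus strand), chr11:53769764-53770013 (plus), chr8:120736108-120736357 (plus), chr19:46304487-46304736 (plus) and chr17:35194257-35194506 (plus), in the order shown.
Bcl6: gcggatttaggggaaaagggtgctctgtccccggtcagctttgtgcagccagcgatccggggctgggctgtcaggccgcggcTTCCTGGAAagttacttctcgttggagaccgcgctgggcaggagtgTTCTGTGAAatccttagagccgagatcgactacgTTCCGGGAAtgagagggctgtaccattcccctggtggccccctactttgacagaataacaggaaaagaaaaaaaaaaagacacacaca
Irf1: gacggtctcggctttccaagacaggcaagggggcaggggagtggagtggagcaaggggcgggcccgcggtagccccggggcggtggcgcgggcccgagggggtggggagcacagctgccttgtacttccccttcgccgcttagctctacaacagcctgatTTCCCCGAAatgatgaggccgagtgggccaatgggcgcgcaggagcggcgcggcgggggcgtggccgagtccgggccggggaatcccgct
Irf8: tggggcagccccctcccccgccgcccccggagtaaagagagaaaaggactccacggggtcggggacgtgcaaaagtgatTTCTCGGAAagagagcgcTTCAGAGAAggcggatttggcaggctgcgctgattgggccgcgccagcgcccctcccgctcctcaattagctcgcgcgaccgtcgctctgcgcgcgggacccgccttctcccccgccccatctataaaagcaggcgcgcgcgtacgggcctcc
Nfkb2: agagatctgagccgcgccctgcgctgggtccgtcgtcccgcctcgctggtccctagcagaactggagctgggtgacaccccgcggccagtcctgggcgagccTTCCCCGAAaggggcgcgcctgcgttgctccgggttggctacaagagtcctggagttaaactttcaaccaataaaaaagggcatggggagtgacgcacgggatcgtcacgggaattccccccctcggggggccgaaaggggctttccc
Ltb: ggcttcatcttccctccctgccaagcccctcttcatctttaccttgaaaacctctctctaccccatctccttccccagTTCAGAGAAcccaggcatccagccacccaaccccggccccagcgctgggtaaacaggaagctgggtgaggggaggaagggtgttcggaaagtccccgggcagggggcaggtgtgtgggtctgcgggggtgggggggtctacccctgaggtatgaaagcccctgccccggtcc
The Bcl6 window, from the second of its 2 listed starts, holds 3 matches, the Irf8 window 2 and the others 1 each, Irf1 and Nfkb2 share the letters TTCCCCGAA, and Irf8 and Ltb share TTCAGAGAA. The pattern is its own reverse complement, so 1 search covers both strands. It was found in 8.3% of 32851 promoters of 300 bases. It was in 25.9% of 27 promoters of the STAT5-associated list and in 24% of 25 of the interferon-response list, which holds Irf1 and Irf8. Of the 16 genes with the smallest p, 11 had a listed promoter and 0 of their 12 promoters held it. The interferon-response type, GAAANNGAA on either strand, was in 8.56% of all promoters and in 2 of those 12 (Ifitm2 and Pnp). It was in 27.8% of 18 class I promoters and in 48% of the 25 promoters of the interferon-response list. A match describes letters in a window and does not show binding.

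Receptors of the common gamma chain family with their JAKs and STATs had a difference above 0 in both replicates in 16 of 22 genes and below 0 in both in 4, with a median of 0.24. Over all genes 27.2% were above and 32.1% below. With the block 3 of the 22 had an unadjusted p under 0.05 in the higher direction, against 3.1% of all genes. In the lower direction 1 did, against 2.81%. Stat2, a transcription factor of interferon signalling, was at 39.2 and 33.5 CPM for early control against 43.6 and 41 for early sgStat5, then 63.1 and 43.5 for late control against 93.8 and 75.8 for late sgStat5. It rose in the late gate with the block, with an adjusted p of 0.00806, and its difference was 0.42 and 0.51. Il15ra, the IL-15 receptor alpha chain, had differences of 0.73 and 0.25. Il4ra, the IL-4 receptor alpha chain, was the 1 gene in the lower direction, with -0.39 and -0.42. The share above 0 in both replicates was 11 of 22 for Notch response genes, 12 of 25 for RAS, ERK and immediate-early genes, 13 of 24 for FOXO and quiescence genes and 10 of 24 for BCL2 family and p53 genes. Below 0 in both were 2, 5, 4 and 4 genes in that order, and for progenitor genes 6 of 25 were above and 10 below. The shares of all genes beside these lists are again 27.2% above and 32.1% below.

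T-lineage transcription factors had differences above 0 in both replicates in 17 of 20 tested genes and below 0 in both replicates in none. The shares of all genes were 27.2% and 32.1%, and the median of the list was 0.29. With the block 9 of the 20 had an unadjusted p under 0.05, all higher, against 3.1% of all genes. Without it 0 of the 20 did, against 1.31%. Lef1, a partner of beta-catenin in thymocytes, was at 37.4 and 22.6 CPM for early control against 9.44 and 5.87 for early sgStat5, then 169 and 43.5 for late control against 170 and 56 for late sgStat5. It fell in the early gate with the block, with an adjusted p of 0.0111, and its late arms overlapped. The difference was 1.98 and 2.30. Id3, an inhibitor of E proteins, had differences of 1.60 and 0.98, and Satb1, a chromatin organiser of thymocytes, had 0.62 and 0.39. Ikzf3, the lymphoid factor Aiolos, was at 0.83 and 0.61, 2.16 and 2.55, 0.46 and 0.13, and 8.8 and 2.29 CPM.

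Genes of the CD3, pre-TCR and recombination list were less uniform, with 13 of 24 above 0 in both replicates and 5 below. Over all genes 27.2% were above and 32.1% below. Rag1, a recombinase subunit, was at 54.1 and 39.9 CPM for early control against 59.8 and 42.6 for early sgStat5, then 233 and 118 for late control against 518 and 220 for late sgStat5. The replicates of the late gate differ widely, but sgStat5 was higher than control in each, and the difference was 1.01 and 0.80. Ptcra, the pre-TCR alpha chain, was at 0.63 and 0.22, 1.08 and 0.78, 12.1 and 1.1, and 46.9 and 26.8 CPM. Cd28, a costimulatory receptor, had 1.21 and 2.04, from levels of 4.45 and 10.2, 3.24 and 3.8, 10.3 and 8.32, and 17.5 and 12.9 CPM. Replicate 1 lay above replicate 2 in late control for Bcl11b, Lef1, Rag1 and Ptcra alike, and the part of the stage of the sorted cells in these differences was not tested.

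Several NF-kappaB genes had a higher late effect, while their list as a whole had little direction. Of 26 TNF superfamily and NF-kappaB genes, 11 had a difference above 0 in both replicates and 7 below, with a median of 0.04. The shares of all genes were 27.2% above and 32.1% below. Relb, the DNA-binding partner of p52, was at 3.74 and 4.4 CPM for early control against 2.29 and 4.88 for early sgStat5, then 3.18 and 4.87 for late control against 18.9 and 14.4 for late sgStat5. Nfkb2, the precursor of p52, was at 27.2 and 25.6, 23.1 and 22.7, 29.4 and 22, and 71.4 and 41.5 CPM. Nfkbia, the inhibitor IkappaB-alpha, was at 19.1 and 15.1, 18.2 and 17.4, 32.4 and 18.3, and 68.2 and 38.6 CPM. Ltb, a ligand of the lymphotoxin receptor, was at 31.7 and 18.8, 28.8 and 18.7, 56.5 and 31.3, and 106 and 54.1 CPM. All 4 rose in the late gate with the block, and their early arms overlapped in all but Nfkb2, where sgStat5 was slightly lower. Their blocked differences were 2.31 ± 0.48, 1.31 ± 0.26, 0.99 ± 0.27 and 0.92 ± 0.16 (SE) in that order.

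Etv5, an ETS factor downstream of receptor kinases, was the gene other than Dscam that DESeq2 called without the block. It was at 47.1 and 44.1 CPM for early control against 52 and 44.1 for early sgStat5, then 35.5 and 48.3 for late control against 101 and 114 for late sgStat5. Only late sgStat5 stood apart, and the difference was 1.37 and 1.23. Among adhesion and migration genes the list as a whole had no direction. In both replicates 9 of 26 were above and 9 below 0, against 27.2% and 32.1% of all genes. Ccr9, the receptor that guides progenitors to the thymus and gut, was at 0.28 and 0.03, 0.18 and 0.11, 1.99 and 0.81, and 22.2 and 6.88 CPM. Itgae, the CD103 integrin, had differences of 1.09 and 1.95. Ccr7, a homing receptor, had -1.70 and -0.41. Among the FOXO and quiescence genes Slfn2, which supports quiescence, had 1.14 and 1.19, and Foxo1 had 0.32 and 1.13. In the progenitor list, Mef2c was at 8.27 and 12.7 CPM for early control against 26.4 and 22.2 for early sgStat5, then 4.79 and 3.97 for late control against 5.75 and 4.23 for late sgStat5. It rose in the early gate with the block, with an adjusted p of 0.0493, and its difference was -1.41 and -0.71.

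Growth and metabolism lists leaned lower late by small amounts. Differences were below 0 in both replicates in 21 of 27 DNA replication and mitosis genes, 17 of 26 sterol and fatty acid genes, 16 of 24 ribosome biogenesis genes and 14 of 23 glycolysis genes, against 32.1% of all genes. The medians were -0.14, -0.16, -0.12 and -0.17. With the block 7 of the 26 sterol genes had an unadjusted p under 0.05, all lower, against 2.81% of all genes. Sqle, an epoxidase of cholesterol synthesis, was at 124 and 111 CPM for early control against 123 and 123 for early sgStat5, then 128 and 110 for late control against 87.8 and 94.5 for late sgStat5. Late sgStat5 was lowest, and the difference was -0.54 and -0.37. Msmo1 and Sc5d, later enzymes of the same route, had -0.62 and -0.28 and -0.46 and -0.32. Utp20, a ribosome assembly factor, had -0.32 and -0.38. Slc2a3, a glucose transporter, went against its list with 0.71 and 0.44.

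**Figure D5:**
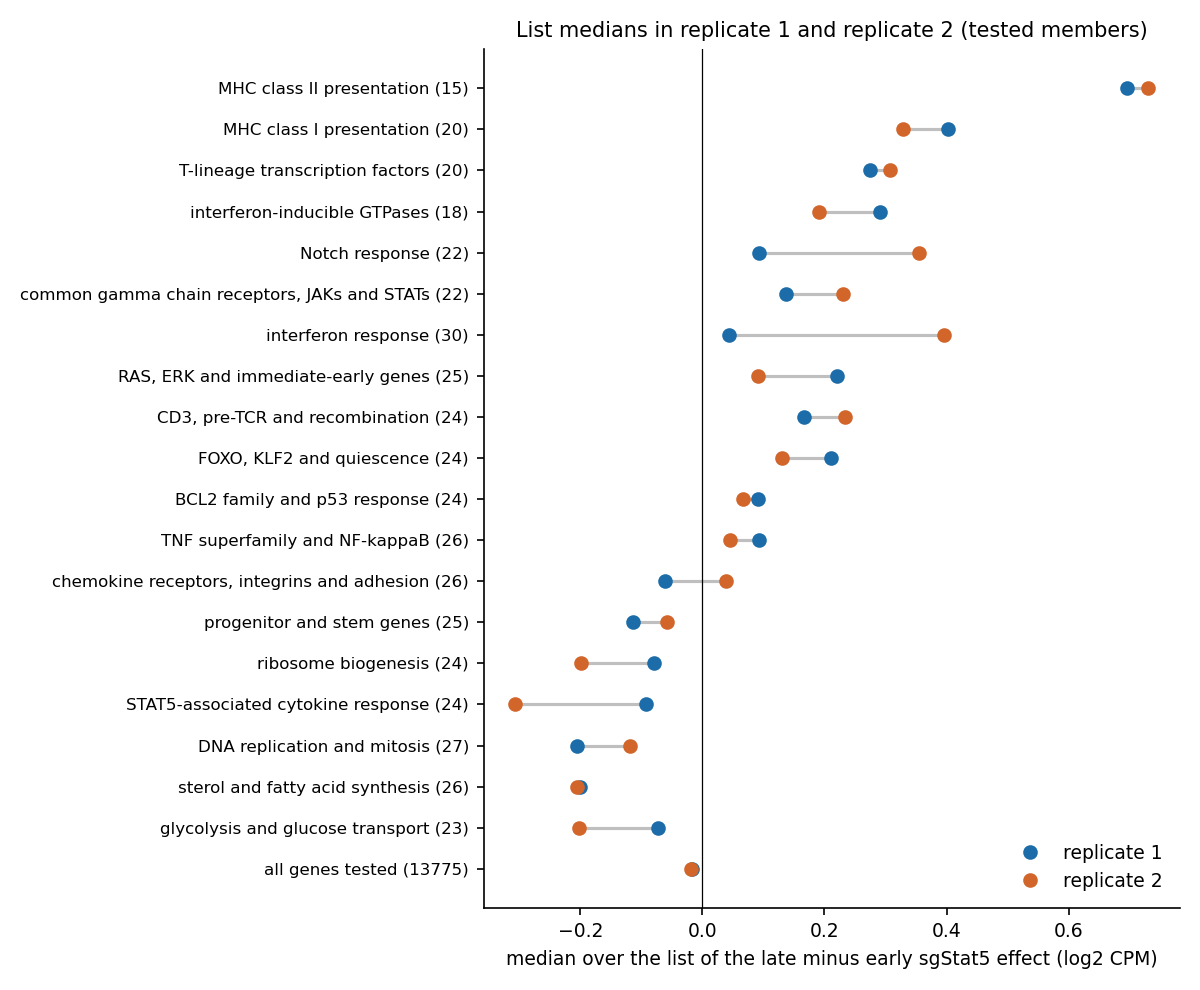
Median over each gene list (rows, number of tested members in brackets) of the late minus early sgStat5 effect in log2 CPM, in replicate 1 and replicate 2. MHC class II and class I lie to the right of 0 in both replicates, at 0.70 and 0.73 and at 0.40 and 0.33. The lists of cell type markers, with the stromal list among them, are not drawn.

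Other cell types were read from summed marker lists. The NK and innate lymphoid list was at 1806 and 2259 CPM for early control against 1837 and 2054 for early sgStat5, then 1019 and 1723 for late control against 1866 and 2212 for late sgStat5. Gzma, a granzyme of NK cells, was at 1211 and 1517, 1359 and 1514, 874 and 1410, and 1707 and 1970 CPM, so that late control was lowest and late sgStat5 highest in each replicate. Gzma carried most of that sum, and without it the list was at 595 and 742 CPM, 478 and 540, 146 and 313, and 158 and 242 in the same order. Gzmb, another granzyme, was at 316 and 394, 189 and 251, 42.7 and 148, and 29.2 and 60.1 CPM, lower with the guides in every pair. Zbtb16, the innate-lymphoid factor PLZF, had differences of 1.04 and 0.31. The mast, basophil and megakaryocyte-erythroid list was higher in the early gate, from 1373 to 2319 CPM, than in the late gate, from 364 to 686. Timp3, a metalloprotease inhibitor, fell in both gates with the block, and its difference was -1.43 and -0.78. The part of these cell types in the differences was not tested.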

How the data were processed

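Bulk RNA from 8 libraries was measured. The authors deposited raw read counts per gene, made with HOMER on mm10 per the file headers, and a companion table of FPKM values per the file headers. Tools named in the submitters' processing notes are RSEM 1.2.25, STAR 2.4.0 and bcl2fastq 1.8.4. The kit keeps no strand, so reads of overlapping genes cannot be separated.

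Groups follow the sample titles. Counts were fitted with edgeR 4.0.16 (R 4.3.3; quasi-likelihood test, TMM, filterByExpr, Benjamini-Hochberg at 0.05) over 4 groups of 2, without a block and, as an alternative, with the replicate number as a block. DESeq2 1.42.0 and limma 3.58.1 were further alternatives. Per-replicate differences used a prior count of 2, and FPKM a pseudocount of 1. The code was tested on simulated data. Replicate numbers pair the libraries: deviations from group means correlated at 0.421 to 0.578 over the 6 pairs of groups.

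Genes were named by a rule: targets and sort genes, genes past the threshold (there were none), up to 8 per direction with the smallest blocked p, and up to 4 per list by size. The promoter search covered the smallest-p genes and the lists, since no gene passed. Genes and lists were chosen with earlier results of these data known.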

Additional observations from a re-analysis of the deposited data

How the results depend on the processing

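The test of the difference between gates called 0 genes without and with the replicate block, while the count at an unadjusted p under 0.05 rose from 302 to 814 with it. DESeq2 called 2 genes without and 71 with the block. With 1 library left out the count stayed at 0 without the block and ran from 0 to 6 with it: it was 6 without early sgStat5 replicate 2 and 1 without late sgStat5 replicate 2. Over 29 alternatives and 117 genes followed, 158 of 3387 values reversed, in 37 genes. Of the 16 genes with the smallest p, 0 reversed, and DESeq2 with the block called all 16. They were chosen from the same counts by the blocked p and a shared sign in both replicates. That choice favours both outcomes, so nothing is read from them.

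Stat5b was 0.011 with a 5 CPM filter, with and without the block, and 0.027 on FPKM in both fits. Ifit3 was 0.074 on FPKM in both fits. With 1 library left out and no block, the difference ran from -0.123 to 0.067 for Stat5b, -0.47 to 1.25 for Bcl11b, -1.49 to 0.98 for Cish, -0.29 to 2.39 for Ifit1, -0.016 to 0.97 for Satb1 and -1.28 to 12.5 for Col1a1. With the block it reached 0.025 and 0.022 for Stat5b without early control replicate 1 and without late sgStat5 replicate 2, and 0.46 for Cish without early sgStat5 replicate 2. Of 74 genes followed in this way, 32 had a blocked difference that moved by over 1.5 times without at least 1 library. Of the 16 with the smallest p 0 did, which their choice by the blocked p also favours. The causes of these reversals were not tested. Groups of 2 libraries limit the precision, and genes near 0 CPM in 1 library give the least certain differences.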
